A study of Mus musculus with 35 samples.

Results

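The 30 induced pluripotent stem (iPS) clones of the series were compared with its 2 embryonic stem (ES) cell lines, and the question here was which genes lay outside both ES lines, on the same side, in every kind of clone. The members were the 30 arrays titled 4factor or 3factor and the 2 arrays titled ES 1 and ES 2, which is 32 of the 35 arrays of the series. The other 3 arrays, 1 each of the primary cells from which clones were made, were used only as levels set beside the clones.

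The clones came from 6-week-old mice that carry a Nanog-GFP-Puro reporter, in which the Nanog gene drives green fluorescent protein and puromycin resistance. Source cells were PαS cells (PDGFRα+ Sca-1+ mesenchymal stem cells of bone marrow), OP cells (PDGFRα- Sca-1- osteo-progenitors of bone marrow) and tail tip fibroblasts (TTF). Each was infected with retroviruses for Oct3/4, Sox2, Klf4 and c-Myc (4F) or without c-Myc (3F), together with DsRed as a marker of active provirus. Clones that were GFP+ and DsRed- after puromycin selection were grown on mitomycin C-treated SNL feeder cells with LIF-conditioned medium, so every array of a clone may hold some feeder RNA. The 6 groups, 4F- and 3F-PαS-iPS, 4F- and 3F-OP-iPS and 4F- and 3F-TTF-iPS, held 5 clones each, with 1 array per clone. ES 1 was line EB-3 and ES 2 was line RF8, with 1 array per line, and neither was treated with the factors. The study describes 3F-PαS-iPS #1 and #2 as of male origin. The sex of the other clones and of the ES lines, and the strain, are not given in the sources used here.

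All 30 clone arrays belonged to 1 scanning session and neither ES array was in it, so the session and the cell type cannot be told apart. RF8 was also scanned on another scanner model than the other arrays. The version of the software that computed the intensities differed between the clones, EB-3 and RF8. The source arrays shared the slide, session and software version of EB-3. Session and software therefore cannot be told apart from cell type where clones are set beside source cells either. Between 56.6% and 65.7% of probes were well above background in the clones, against 64.3% in EB-3 and 71.1% in RF8. Values are given as a level, which is the log2 of a probe's intensity over the 75th percentile of all intensities on that array, or as a difference between levels. The difference from the ES mean was the mean of the 6 group means minus the mean of both ES arrays, given with its standard error (SE) and an adjusted p from limma with Benjamini-Hochberg adjustment over 27598 probes. The difference from the nearer array was taken from the ES line closer to the clones' mean, and it is also the difference that remained when the other ES array was left out. A probe was called changed at an adjusted p under 0.05 with at least a 2-fold difference.

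Mouse ES cells correspond to the epiblast of the early embryo and are held in that state by Oct3/4, Sox2 and Nanog, with LIF as the supporting cytokine. The neighbouring lineage, the primitive endoderm, is specified by Gata6, Sox17 and Gata4 and lays down a basement membrane of laminin and type IV collagen, and the trophoblast is the third lineage of that stage. Reprogramming switches a somatic programme off and the ES programme on, and Gata6 and Nanog repress each other in the embryo.

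Gkn2 had the largest lower bound of fold among the higher named genes without signal above background in ES cells, and Zfp42 (Rex1) the largest difference downward among the pluripotency factors tested. The 250 bases before their start sites are shown from RefSeq (build GRCm38.p6) to give the sequence context of these 2 genes. Gkn2 lies on the plus strand, chr6:87373115-87373364, and Zfp42 on the minus strand, chr8:43307010-43307259. Capitals mark AGATAA, a form of the site bound by GATA factors, in Gkn2, and TTTGCAT, the core of the octamer bound by Oct3/4, in Zfp42.
Gkn2: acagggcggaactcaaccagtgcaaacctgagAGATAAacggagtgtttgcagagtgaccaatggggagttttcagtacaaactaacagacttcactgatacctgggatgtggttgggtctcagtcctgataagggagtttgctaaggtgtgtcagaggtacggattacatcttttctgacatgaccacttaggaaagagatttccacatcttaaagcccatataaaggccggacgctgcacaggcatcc
Zfp42: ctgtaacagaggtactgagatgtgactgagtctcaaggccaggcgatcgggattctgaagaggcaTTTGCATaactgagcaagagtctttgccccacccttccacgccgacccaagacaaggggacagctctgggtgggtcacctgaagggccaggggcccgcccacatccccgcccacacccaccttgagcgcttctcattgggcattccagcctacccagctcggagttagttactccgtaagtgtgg
The AGATAA of Gkn2 begins 218 bases before the start and the TTTGCAT of Zfp42 begins 185 bases before it. On either strand, AGATAA or its complement TTATCT stood in 11.2% of all 32851 promoter windows, each from 250 bases before to 50 after a start, and TTTGCAT or ATGCAAA in 4.63%, so each match is only a description. Of 10 primitive endoderm genes with a window in the table, 2 held AGATAA or TTATCT. Other forms of the GATA site were not counted, and TGATAA, which also stands in the Gkn2 sequence, is not marked.

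Of the 27598 probes tested, 4754 (17.2%) were higher in the clones than in ES cells and 5238 (19%) were lower. The mean of every group lay beyond both ES arrays on the same side for 4060 higher probes (14.7%) and 4964 lower probes (18.0%). Each group mean was at least 2-fold beyond the nearer ES array for 1642 higher (5.95%) and 2182 lower probes (7.91%). Every one of the 30 clones lay beyond both ES arrays for 2336 higher (8.46%) and 3241 lower probes (11.7%). These are shares of probes, and each gene list is read against the values for genes that follow. With 1 probe per gene, 2461 of 15049 genes (16.4%) were higher and outside both ES arrays in all groups, 1931 (12.8%) were lower, and the median difference of all genes was 0.02. Of these 15049 genes, 1390 were higher and 1220 lower in every clone. At least 2-fold beyond the nearer ES array in all groups were 994 higher and 663 lower genes. The median difference of all probes was -0.11.

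Single groups gave similar shares against the same 2 ES arrays. Higher probes made up 13.3% in 4F-PαS-iPS, 17.8% in 3F-PαS-iPS, 15.3% in 4F-OP-iPS, 17.5% in 3F-OP-iPS, 16.8% in 4F-TTF-iPS and 18.4% in 3F-TTF-iPS. Lower probes made up 14.6%, 19.8%, 19.4%, 18.4%, 19.4% and 18.6% in the same order. The ES lines themselves differed: their gap had a median of 0.69 on the log2 scale and was at least 1 for 34.7% of probes. RF8 was the nearer line for 70.3% of higher and 58.8% of lower genes, while it was the higher line for 49.8% of all genes.

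**Figure D1:**
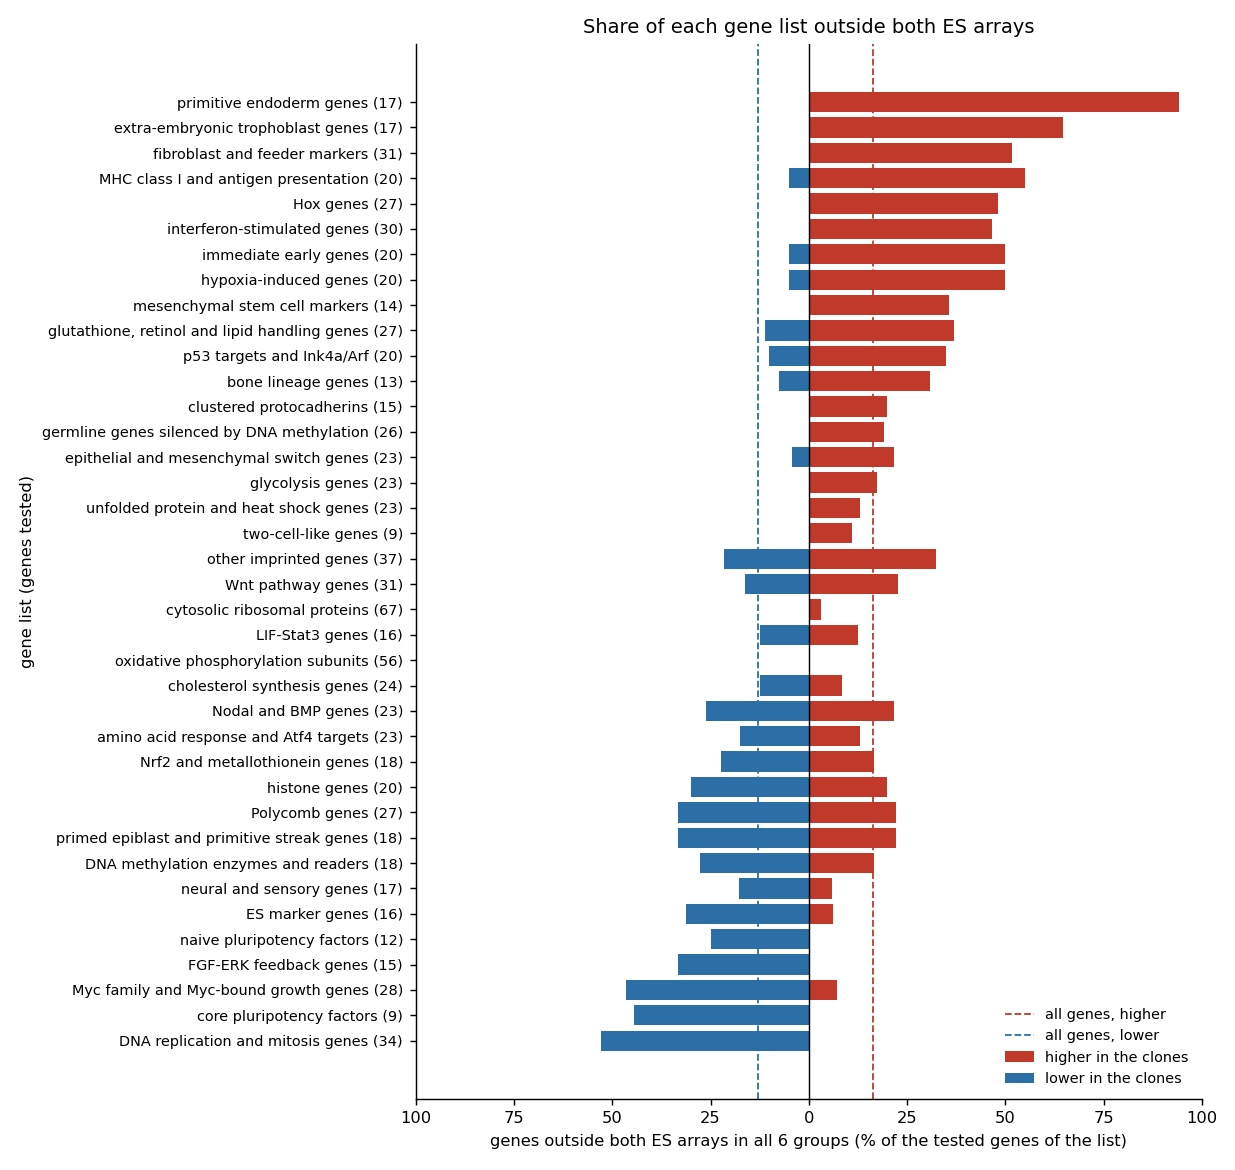
Share of the tested genes of each list (number in brackets) that changed and lay outside both ES arrays in all 6 groups, higher to the right in red and lower to the left in blue, with dashed lines for all genes (16.4% higher, 12.8% lower). Of the lists drawn, primitive endoderm genes reach furthest to the right with 16 of 17 genes and DNA replication genes furthest to the left with 18 of 34.

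The 15 genes farthest above both ES lines included secreted proteins, transporters, enzymes and the factors Gata6 and Isx. Gkn2, a gastrokine secreted by stomach mucosa, had levels of -8.88 in EB-3 and -8.87 in RF8, neither above background, and of -2.07, 3.20 and 5.53 (lowest, median and highest) in the clones. It was at least 702-fold higher in the clones (adjusted p = 5.5e-09, limma), and all 30 clones were above background. Srgn, the core protein of secreted proteoglycans, had levels of -2.0 and -3.43 in ES cells and of 4.61, 6.61 and 7.75 in the clones. Its difference was 9.22 ± 0.54 (SE, adjusted p = 1.9e-12) from the ES mean and 8.50 from the nearer array. Here too the lowest clone stood far above either ES array.

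Aqp8, a water channel of gut and liver, had levels of -3.38 and -4.83 in ES cells and of 2.27, 5.88 and 8.11 in the clones, a difference of 9.78 ± 0.87 (adjusted p = 1.9e-09) and 9.06 from the nearer array. Hkdc1, a hexokinase-like enzyme, had levels of -4.07 and -4.05 in ES cells and of 2.24, 4.44 and 6.56 in the clones, a difference of 8.40 ± 0.68 (adjusted p = 5.4e-10). In both genes every clone also stood above all 3 source arrays. Tinagl1, a basement membrane glycoprotein, was higher by 7.88 from the mean and 7.51 from the nearer array, Glipr1 by 8.24 and 8.00, and Slco2a1, the prostaglandin transporter, by 6.98 and 6.92. For the enzymes, hormones and factors that follow, neither ES array was above background, so only bounds can be given: the aminopeptidase Enpep was at least 201-fold higher (adjusted p = 1.3e-08), the calcium-binding S100g at least 94.9-fold (1.8e-07), the peptide hormone Cck at least 124-fold (3e-07), the fibrinogen chain Fgb at least 114-fold (1.9e-07) and the intestinal homeobox factor Isx at least 35.1-fold (3.5e-08), all by limma. The clones did not overlap ES cells in any of these genes. Ifi27l2b, measured in 29 clones and above background in 28, was at least 19-fold higher (adjusted p = 4.2e-07). Ptprg, a receptor phosphatase, was at least 69.3-fold higher (adjusted p = 7.9e-17) by 1 of its probes, but its other probe differed by 0.04 (adjusted p = 0.92).

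Primitive endoderm genes made up the list that stood highest over ES cells. Of the 17 genes tested, 16 were higher and outside both ES arrays in all 6 groups, against 16.4% of all genes, 14 of them in every clone and 14 at least 2-fold beyond the nearer array. Their median difference was 4.62 from the ES mean and 3.67 from the nearer array. The mean level of the list was -2.51 in EB-3, -1.30 in RF8 and 0.99, 2.56 and 3.94 in the clones, and -1.80, -2.52 and -1.69 in PαS cells, OP cells and TTF. In this mean all 30 clones stood above both ES lines and all 3 source arrays, but single members differed. Gata6 and Sox17 were lower in each source array (at most -2.94 and -8.59) than in any clone (at least 1.2 and 0.79). Dab2 and Afp, in contrast, were higher in TTF, at 5.03 and 1.83, than in any clone, at most 3.55 and 0.39. Pdgfra (0.98, 1.58 and 0.59 in PαS cells, OP cells and TTF, and -0.50 to 3.35 in the clones) and Sparc (7.26, 8.38 and 5.57, and 5.86 to 8.65 in the clones) were about as high in the sources. The mean level of 31 fibroblast and feeder markers was above both ES lines in 27 of the clones, and its part in the primitive endoderm results was not tested.

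Among the transcription factors, Gata6, which specifies the lineage, had levels of -2.77 and -2.74 in ES cells and of 1.2, 3.25 and 5.16 in the clones. Its difference was 5.95 ± 0.57 (adjusted p = 7.7e-09) and 5.93 from the nearer array, and all 3 of its probes gave the call. Sox17, which acts after Gata6, had levels of -4.85 and -2.87 in ES cells and of 0.79, 2.97 and 4.26 in the clones, a difference of 6.73 ± 0.60 (adjusted p = 2.2e-09) and 5.74 from the nearer array. Gata4 had levels of -6.09 and -5.26 in ES cells and of -3.33, -1.21 and 0.93 in the clones, a difference of 4.41 ± 0.66 (adjusted p = 4.5e-06) and 3.99 from the nearer array. For all 3 factors the lowest clone lay above the higher ES line. Sox7 was higher by 3.34 and 3.21. Hnf4a, a factor of visceral endoderm and liver, was not above background in ES cells and was so in 29 of 30 clones, at least 9.87-fold higher (adjusted p = 3.3e-06), with a difference of 0.80 (adjusted p = 0.11) under normexp background correction. Foxa2, an endoderm factor taken from the list of epiblast and streak genes, had levels of -2.99 and -0.94 in ES cells and of 1.1, 3.93 and 5.81 in the clones, a difference of 5.76 ± 0.69 (adjusted p = 1.8e-07). Foxq1 was the exception, with a difference of 0.97 (adjusted p = 0.080).

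Genes of basement membrane proteins were among the higher members of the primitive endoderm list. Col4a2, a chain of type IV collagen, had levels of -1.97 and 0.17 in ES cells and of 3.65, 5.44 and 7.49 in the clones, a difference of 6.47 ± 0.57 (adjusted p = 1.8e-09) and 5.40 from the nearer array. Its partner Col4a1 was higher by 5.77 and 4.73, the matrix protein Sparc by 4.14 and 3.67, and the laminin chains Lama1, Lamb1 and Lamc1 by 4.96, 2.81 and 2.08 (4.01, 2.61 and 1.54 from the nearer array). The laminin chain Lamc1 lost its call without RF8 (adjusted p = 0.070). Among genes of endocytosis, Cubn, the receptor that takes up proteins with Amn, had levels of -3.30 and -2.91 in ES cells and of 0.18, 1.99 and 4.46 in the clones, a difference of 5.26 ± 0.73 (adjusted p = 1.8e-06), and Dab2, the adaptor of that receptor, was higher by 4.51 and 3.12. Amn itself was higher by 2.65 (adjusted p = 0.0498), with 24 of 30 clones above both ES arrays, and lost its call without EB-3 (adjusted p = 0.36), without RF8 (0.082), under normexp correction (0.080), with the slide as a block (0.081), with a replicate block (0.12), under quantile normalization (0.054) with all clones as 1 group (0.080) and in 22 of the 30 fits that left out a single clone. Pdgfra, which is also the marker by which PαS cells were sorted, was higher by 4.65 from the mean but by 2.07 from RF8, and Afp, a product of visceral endoderm, by 4.78 and 2.12, the latter without a call when EB-3 was left out (adjusted p = 0.054). Afp was above background in RF8 but not in EB-3, so its difference from the ES mean depends on a dim signal. The same holds for Elf5, Plac1, Prrx1, Dcn, Postn, Bmp2, Hoxa10, Inhba and Fabp4, for which the difference from RF8 is the measured one.

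**Figure D2:**
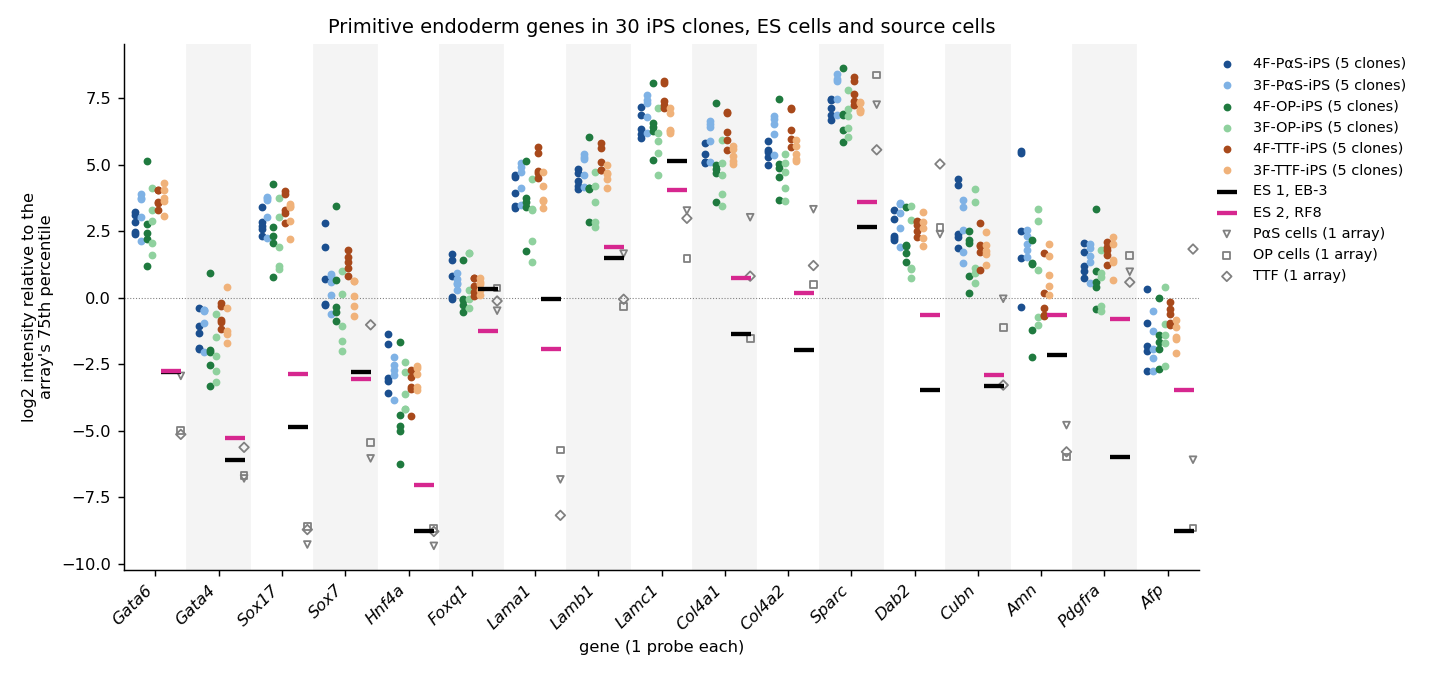
Levels (log2 intensity relative to the array's 75th percentile) of the 17 primitive endoderm genes in each clone, coloured by group, with bars for EB-3 and RF8 and open symbols for the 3 source arrays. For Gata6 the clones lie between 1.2 and 5.16 and both ES lines near -2.8, and Foxq1 is the gene of the list that was not called, with 16 of 30 clones above both lines.

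Genes of the trophoblast were higher less uniformly. Of 17 tested, 11 were higher and outside both ES arrays in all groups, 0 were lower, and 2 were so in every clone. The median difference was 2.68 from the ES mean and 2.34 from the nearer array, and the mean level of the list was -2.50 and -1.60 in ES cells and -1.84, 0.52 and 2.25 in the clones, so 28 of 30 clones stood above both lines. Krt7, a keratin of simple epithelia, had levels of -2.76 and 0.19 in ES cells and of -0.66, 3.99 and 5.73 in the clones, a difference of 5.03 ± 1.01 (adjusted p = 0.00018) and 3.56 from the nearer array, and its lowest clone overlapped RF8. The keratin genes Krt8 and Krt18 were higher by 3.43 and 3.53 from the mean and by 2.34 and 2.45 from the nearer array. Cdx2, a regulator of trophoblast and later of gut, had levels of -4.65 and -4.94 in ES cells and of -6.92, -1.84 and 1.06 in the clones, a difference of 2.79 ± 0.90 (adjusted p = 0.011), and 28 clones were above both ES arrays. The call for Cdx2 was lost without EB-3 (adjusted p = 0.073), without RF8 (0.096) and under normexp correction (0.053). The homeobox genes Rhox6 and Esx1 and the trophoblast factor Elf5 were higher by 3.39, 2.93 and 4.51 (3.04, 2.85 and 2.70 from the nearer array), but without EB-3 their adjusted p was 0.079, 0.11 and 0.17. Without RF8 that of Esx1 was 0.085, and under normexp correction that of Elf5 was 0.092. Plac1, a placental surface protein on the X chromosome, was higher by 4.92 and 2.61 with all 30 clones above both lines.

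In fibroblast and feeder markers the 2 ES arrays stood far apart. Whether the ES lines were on feeder cells when RNA was taken is not given in the sources used here, and the part of feeder RNA in either ES array was not tested. The mean level of the 31 genes was -4.01 in EB-3, 0.93 in RF8 and 0.70, 1.76 and 3.28 in the clones, with 4.67, 4.57 and 3.62 in PαS cells, OP cells and TTF. In bulk RNA, fewer cells of a type and less RNA per cell cannot be told apart. Of the 31, 16 were higher and outside both ES arrays in all groups and 0 were lower, yet the median difference was 3.50 from the mean of both lines and 0.80 from the nearer. A further 8 changed but lay within the ES range in at least 1 group.

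Acta2, smooth muscle actin, stood out from either line, with levels of -1.46 and 1.39 in ES cells and of 1.46, 5.04 and 7.75 in the clones. Its difference was 4.75 ± 0.94 (adjusted p = 0.00015) and 3.33 from the nearer array, though another of its probes differed by 0.74 (adjusted p = 0.019). Prrx1, a mesenchymal homeobox factor, was higher by 5.37 from the mean and 1.85 from RF8, and the proteoglycan Dcn by 5.97 and 1.60, both in every clone. Postn, a matrix protein, was higher by 5.12 and 1.76, without a call when EB-3 was left out (adjusted p = 0.40) or under normexp correction (0.050). Col1a1, the main chain of fibroblast collagen, had levels of -4.62 and 3.13 in ES cells and of 1.61, 4.07 and 6.08 in the clones. Its 4.57 from the ES mean shrank to 0.70 from RF8 (adjusted p = 0.64 without EB-3), and 22 clones lay outside both lines. S100a4 went further, with levels of -4.63 and 6.88 in ES cells and of 5.21, 6.47 and 8.12 in the clones. It was 5.29 higher than the ES mean and 0.46 lower than RF8, where it had no call (-0.46, adjusted p = 0.53 without EB-3).

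**Figure D3:**
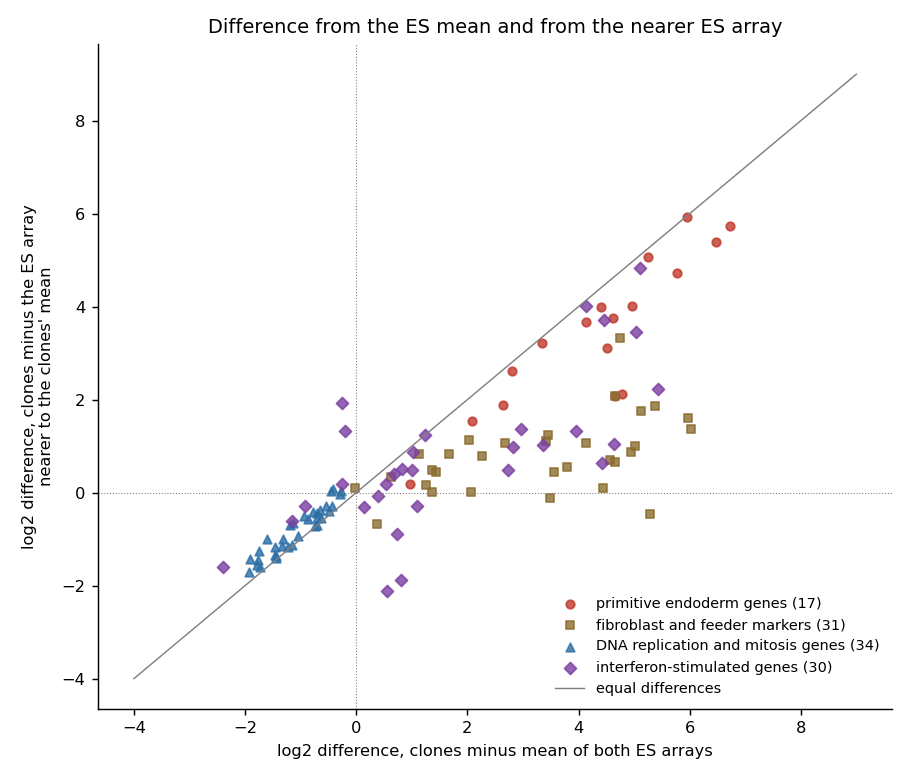
Each point is 1 gene of 4 lists, with its log2 difference between the clones and the mean of both ES arrays on the x axis and that between the clones and the nearer ES array on the y axis. Primitive endoderm and DNA replication genes lie near the line of equal differences, and most fibroblast and feeder markers lie well under it, with medians of 3.50 and 0.80.

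The mesenchymal, bone and Hox lists shared this spread. Of 14 mesenchymal stem cell markers 5 were higher and 0 lower, with medians of 1.47 and 0.41 from the mean and the nearer array. Of 13 bone lineage genes 4 were higher and 1 lower. Pth1r, the parathyroid hormone receptor, had levels of -2.11 and -0.65 in ES cells and of 2.62, 4.94 and 6.50 in the clones, a difference of 6.12 ± 0.58 (adjusted p = 6.6e-09) and 5.39 from the nearer array. Bmp2, a bone morphogenetic protein, was higher by 5.01 and 3.49, and Msx2, its target, by 2.59 and 2.39. Both are also expressed outside bone, and Pth1r is also a gene of parietal endoderm. The bone-specific factor Sp7 (osterix) was the lower gene, above background in 3 of 30 clones, so that its difference has no measured size. It had no call when EB-3 (adjusted p = 0.11) or RF8 (0.17) was left out, under normexp correction (0.78) or with a floor under dim signals (0.096).

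Of 27 Hox genes, the homeobox factors that mark position along the body axis, 13 were higher and 0 were lower, with medians of 2.34 and 0.66. Hoxc9 had levels of -5.35 and -4.33 in ES cells and of -2.02, 0.05 and 2.06 in the clones, a difference of 4.82 ± 0.52 (adjusted p = 4.4e-08) and 4.31 from the nearer array. All 30 clones were above both lines, and so were the 3 source arrays. Fibroblast and feeder markers were higher in the same clones, and their part in the mesenchymal, bone and Hox results was not tested. Hoxc10 and Hoxd9 were above background in 24 clones each and in neither ES line, at least 5.44-fold and 5.5-fold higher (adjusted p = 3.2e-05 and 0.00071, limma), and under normexp correction their differences were 0.70 and 0.57 (adjusted p = 0.33 and 0.43). Hoxa10 was higher by 3.71 and 2.83, with adjusted p = 0.065 without EB-3 and 0.13 under normexp correction.

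Genes of the interferon response were higher in part. Of 30 tested, 14 were higher and 0 lower, with medians of 1.01 and 0.57. Irf7, the factor that amplifies type I interferon, was above background in all 30 clones and in neither ES line, at least 17.4-fold higher (adjusted p = 2.2e-07). Rsad2 (viperin) had levels of -6.15 and -5.89 in ES cells and of -4.40, -1.82 and 0.47 in the clones, a difference of 4.14 ± 0.70 (adjusted p = 2.2e-05) and 4.01 from the nearer array, with no overlap. The exonuclease Isg20 was higher by 5.04 and 3.44. Ifi44 was at least 10-fold higher (adjusted p = 0.00012), with 28 clones above background, and differed by 0.85 (adjusted p = 0.24) under normexp correction. Isg15, a ubiquitin-like protein often used as a marker of the response, was 2.73 above the ES mean but 0.48 above RF8 (adjusted p = 0.71 without EB-3).

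Of 20 genes of MHC class I and antigen presentation, 11 were higher and 1 lower, with medians of 1.74 and 0.62. Tap1, the peptide transporter, had levels of -4.19 and -3.11 in ES cells and of -2.06, -0.54 and 0.15 in the clones, a difference of 3.01 ± 0.31 (adjusted p = 1.9e-08) and 2.47 from the nearer array. Class I heavy chains such as H2-T23 (2.46 and 1.5) and H2-Q7 (2.17 and 1.33) were higher in every clone, but the probes of these near-identical genes may share signal. H2-K1 was 1.42 above the mean and 0.10 above RF8, and B2m, the light chain, 2.75 and 0.64, both without a call when EB-3 was left out (adjusted p = 0.85 and 0.37). Psmb10, an immunoproteasome subunit, was lower by -1.93 and -1.27. Among 7 blood cell markers tested, 4 were higher and 1 lower, with Csf1r, a growth factor receptor of macrophages that trophoblast also carries, at least 42.2-fold higher (adjusted p = 3.2e-06). The mean level of the blood list was -5.46 and -4.39 in ES cells, -3.55 to -1.86 in the clones and -0.18 in TTF, and its part in the immune results, like that of feeder markers, was not tested.

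Hypoxia-induced genes, p53 targets and immediate early genes each changed in part. What fibroblast and feeder markers, higher in the same clones, contribute to these 3 lists was not tested. Of 20 hypoxia-induced genes 10 were higher and 1 lower, with medians of 1.60 and 0.55. Plod2, which hydroxylates lysines of collagen, had levels of -0.26 and 0.07 in ES cells and of 1.74, 3.23 and 5.03 in the clones, a difference of 3.38 ± 0.49 (adjusted p = 2.8e-06) and 3.21 from the nearer array. The collagen prolyl hydroxylases P4ha1 and P4ha2 were higher by 3.24 and 3.73 from the mean (2.86 and 2.80 from the nearer array), and the angiogenic factor Vegfa by 2.32 and 2.17, each in all 30 clones. The histone demethylase Kdm3a was lower by -1.72 and -1.18, with adjusted p = 0.065 without EB-3 and a difference of -0.27 by another probe. The mean level of the list was 0.91 and 1.63 in ES cells and 1.76 to 3.30 in the clones.

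Of 20 p53 targets and genes of the Ink4a/Arf locus, 7 (35%, against 16.4% of all genes) were higher and 2 (10%, against 12.8%) lower. Cdkn1a (p21), which arrests the cell cycle, had levels of 1.04 and -0.15 in ES cells and of 2.47, 3.21 and 4.54 in the clones, a difference of 2.82 ± 0.33 (adjusted p = 1.2e-07) and 2.22 from the nearer array. Phlda3, an inhibitor of Akt, was higher by 1.99 and 1.87, and Cdkn2a, the gene of p16 and Arf, by 2.80 and 2.60, both with no overlap of clones and ES cells. Pmaip1 (Noxa) was higher by 1.45, with adjusted p = 0.066 without RF8. Trp53 itself was lower, by -1.38 and -1.13, in 29 of 30 clones, but its other probe differed by 0.45 in the opposite direction (adjusted p = 0.039). Of 20 immediate early genes 10 were higher and 1 lower: Atf3 by 3.64 and 2.76, Ccn1 by 4.05 and 2.38 and Fosl1 by 3.44 and 2.07, while Ier2 was lower by -1.64 and -1.33 by its brighter probe and higher by 1.57 (adjusted p = 4.5e-08) by the other. Fos was higher by 2.32, with adjusted p = 0.075 without EB-3.

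Among lower genes, Zfp42 (Rex1), a zinc finger protein used as a marker of ES cells, had levels of 7.07 and 6.68 in ES cells and of -2.60, 2.11 and 3.70 in the clones. Its difference was -5.34 ± 0.83 (adjusted p = 8.1e-06) and -5.14 from the nearer array, and even the highest clone lay below both lines. Slc27a2, a fatty acid transporter and acyl-CoA synthetase, had levels of 1.77 and 1.95 in ES cells and of -8.06, -4.21 and -2.33 in the clones, a difference of -6.32 ± 0.96 (adjusted p = 5.4e-06) and -6.23, and 23 clones were above background. Lefty1, a secreted inhibitor of Nodal, had levels of 4.78 and 4.83 in ES cells and of -2.41, -0.07 and 2.58 in the clones, a difference of -4.99 ± 0.97 (adjusted p = 0.00011) and -4.96 from the nearer array. For each of these genes the 2 ES lines were within 0.39 of each other, so mean and nearer array gave almost the same value.

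The further lower genes of the 15 were of mixed kinds, and several were measured in few clones. Dpys, an enzyme of pyrimidine breakdown, was lower by -5.33 and -4.93, the growth factor Fgf17 by -5.18 and -4.65, the muscle actinin Actn3 by -4.63 and -3.99, Clvs2 by -5.27 and -4.25, Bcl6b by -4.25 and -3.95, Map7d3 by -4.28 and -4.0 and A430090L17Rik by -4.11 and -3.99. The number of clones above background was 27 for Dpys and Map7d3, 30 for Actn3, 16 for Bcl6b, 6 for Fgf17 and A430090L17Rik and 2 for Clvs2, so the differences of Fgf17, A430090L17Rik and Clvs2 rest mostly on dim signals and are no measured size. No clone was above background for Myo3b, 4933438K21Rik or A630012P03Rik, which were at least 7.68-fold, 6.39-fold and 5.46-fold lower (adjusted p = 1.1e-09, 4.1e-08 and 1.8e-10, limma). Under normexp correction the last pair fell by less than 2-fold, with differences of -0.90 and -0.83. Eif2s3y, a gene of the Y chromosome, had levels of 2.74 and 2.33 in ES cells and of -8.36, -6.97 and 1.72 in the clones, of which 12 were above background (adjusted p = 0.041). Its call was lost without EB-3 (adjusted p = 0.19), without RF8 (0.15), with the slide as a block (0.095), with a replicate block (0.094) and with all clones as 1 group (0.058).

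Core pluripotency factors were lower in part and higher in none. Of 9 tested, 4 were lower and outside both ES arrays in all groups, against 12.8% of all genes, and the median difference was -1.53 from the mean and -1.05 from the nearer array. Pou5f1 (Oct3/4) had levels of 4.76 and 1.88 in ES cells and of -1.96, 3.03 and 5.22 in the clones, a difference of -0.28 ± 0.87 (adjusted p = 0.80), and 27 of 30 clones lay between the lines. Sox2 had levels of 3.84 and 3.71 in ES cells and of -8.21, 1.96 and 3.23 in the clones, a difference of -2.86 ± 1.78 (adjusted p = 0.18). All 30 clones were below both lines in Sox2. Clones 1 to 3 of 4F-OP-iPS (-8.10, -2.04 and -8.21) and clone 1 of 4F-TTF-iPS (-5.26) were far under the others, which lay between 0.21 and 3.23. Nanog differed by -2.68 ± 1.72 (adjusted p = 0.19), with the same 4 clones the lowest, at -6.13, -3.30, -8.24 and -6.05 in the same order and the others between -0.89 and 3.68. Klf4, with levels of 6.60 and 3.98 in ES cells and of 3.11 to 6.57 in the clones, differed by 0.15 (adjusted p = 0.83), and Myc by -0.43 (adjusted p = 0.73). By RT-PCR the study found transgenes incompletely silenced in several OP- and TTF-iPS clones. Whether the levels of Pou5f1, Sox2, Klf4 and Myc include transgene RNA was not tested.

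Tdgf1 (Cripto), the co-receptor of Nodal, had levels of 4.16 and 3.04 in ES cells and of -3.50, 0.16 and 2.75 in the clones, a difference of -3.35 ± 0.92 (adjusted p = 0.0033) and -2.79 from the nearer array. All clones were below both lines, but its adjusted p was 0.089 without EB-3. Lin28a and Sall4 were lower by -1.53 and -1.37, with adjusted p = 0.28 and 0.14 without EB-3. Sall4 differed by 0.42 (adjusted p = 0.23) by its other probe. Of 12 naive factors 3 were lower and 0 higher: Zfp42, the homeobox factor Gbx2 (-4.08 and -3.94, adjusted p = 0.0014) and the nuclear receptor Nr5a2 (-3.41 and -2.47, adjusted p = 0.0014, or 0.097 without EB-3). Esrrb differed by -3.31 ± 1.89 (adjusted p = 0.14), with 25 clones outside. Of 16 ES marker genes 5 were lower and 1 higher: Rex2 by -3.59 and -3.42 (-1.11, adjusted p = 0.35, by its other probe), Jarid2 by -2.19 and -1.85, while the surface protein Cd9 was the higher gene, by 1.22 and 1.04, with adjusted p = 0.067 without RF8 and a difference of -0.94 (adjusted p = 0.095) by its other probe. Gdf3 and Tdh, lower by -2.83 and -2.54, had adjusted p = 0.32 and 0.29 without EB-3, and Gdf3 had 0.055 with the slide as a block.

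**Figure D4:**
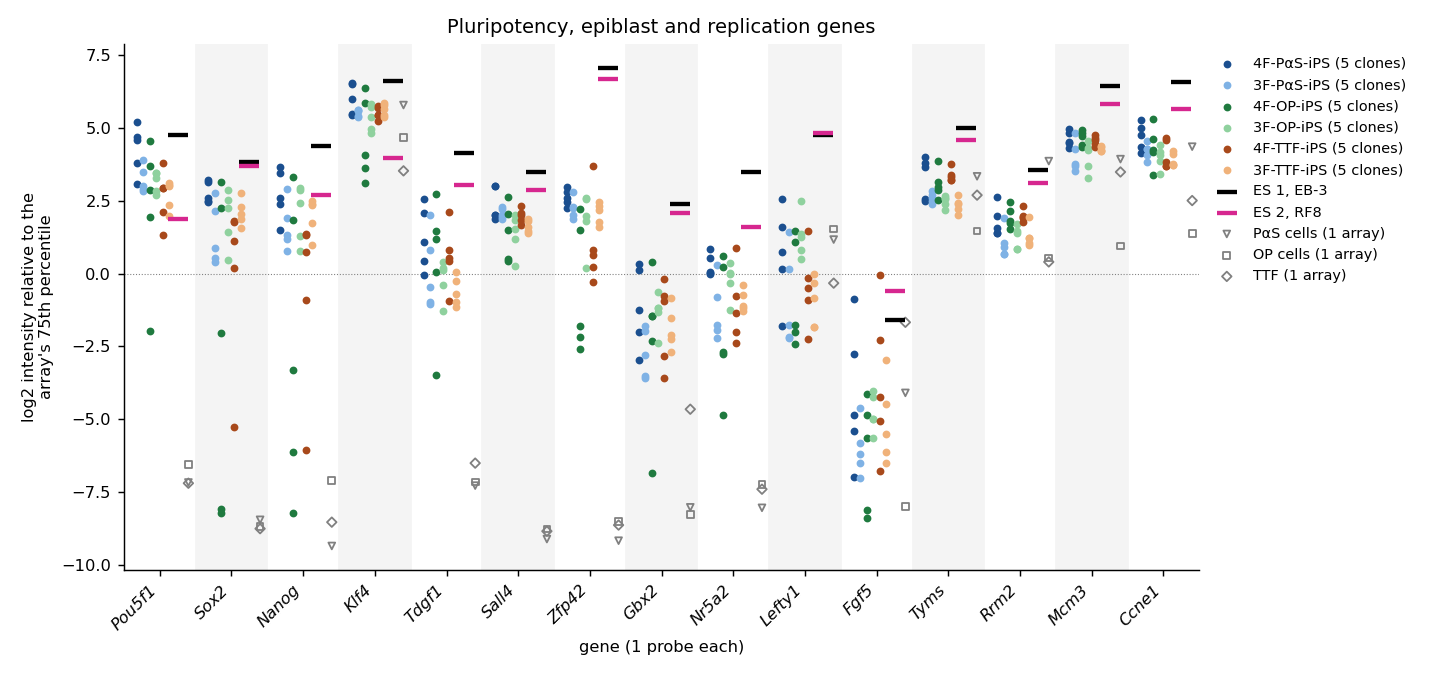
Levels (log2 intensity relative to the array's 75th percentile) of pluripotency, epiblast and replication genes in each clone, coloured by group, with bars for EB-3 and RF8 and open symbols for the source arrays. All clones lie below both ES lines in Zfp42, Sox2, Tdgf1 and the 4 replication genes at the right, while in Pou5f1 and Klf4 27 and 28 of 30 clones lie between the lines.

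Lists of epiblast genes and of signals used in ES cell culture had calls in one or both directions. Of 18 epiblast and primitive streak genes 4 were higher and 6 lower: besides Foxa2, Cdx2 and Krt18, the higher genes held Fst (follistatin, 4.62 and 2.60), and the lower ones Lefty1, Fgf5 (-3.90 and -3.41), Lefty2 (-3.97 and -3.12) and the DNA methyltransferase Dnmt3b. Fgf5 was above background in 19 clones and had adjusted p = 0.12 without RF8, and Lefty2 had 0.077 without EB-3, 0.24 without RF8 and 0.055 with the slide as a block. Among Nodal and BMP genes 5 of 9 ligands and associated factors were lower, Lefty1, Lefty2, the Nodal co-receptor Tdgf1, Gdf3 and Nodal (-2.31 and -1.28, adjusted p = 0.45 without EB-3), and 2 were higher, Bmp7 (2.56 and 2.38) and Inhba (5.81 and 1.44, adjusted p = 0.12 without EB-3). In the whole list of 23 Nodal and BMP genes, 5 (21.7%) were higher and 6 (26.1%) lower, with a median of -0.06. Of all genes 16.4% were higher and 12.8% lower. The 14 receptors and targets held 3 higher genes and 1 lower gene. Among these, Nog (noggin), which binds BMP, was higher by 3.04 and 2.91, and Smad7, the intracellular inhibitor, lower by -1.74 and -1.38. The antagonists Fst and Nog were higher in every clone.

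Of 15 FGF-ERK feedback genes 5 were lower and 0 higher, with a median of -0.69 and with the mean level of the list below both ES lines in all 30 clones. Spry4, a feedback inhibitor, was lower by -2.44 and -2.20 (adjusted p = 0.092 without EB-3, and -0.95 under normexp correction), and Etv1 by -1.70 and -1.67 (adjusted p = 0.093 without either ES array in turn). Of 31 Wnt pathway genes 7 (22.6%) were higher and 5 (16.1%) lower, with a median of -0.03. The ligands Wnt11 and Wnt4 were higher by 3.12 and 2.98 (2.98 and 2.4 from the nearer array), and Wnt4 had adjusted p = 0.052 without EB-3. The targets Sp5 and Axin2 and the nuclear effector Lef1 were lower: Sp5, with levels of 1.2 and 0.45 in ES cells and of -6.76, -3.08 and -0.51 in the clones, by -4.23 ± 1.07 (adjusted p = 0.0017) and -3.85, Axin2 by -2.63 and -2.33, and Lef1 by -4.51 and -3.85 (adjusted p = 0.092 without EB-3). All 30 clones were below both lines in these 3 genes, though Axin2 lost its call without EB-3 (adjusted p = 0.080), without RF8 (0.15) and with the slide as a block (0.0525). Of 16 LIF-Stat3 genes 2 were higher and 2 lower (12.5% each, against 16.4% and 12.8% of all genes), with the receptor Lifr higher by 2.33 and 1.85 (adjusted p = 0.077 without RF8) and the inhibitor Socs2 lower by -2.40 and -2.11 (adjusted p = 0.070 without EB-3).

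Of 34 DNA replication and mitosis genes tested, 18 were lower and outside both ES arrays in all groups, 15 of them in every clone and 7 at least 2-fold beyond the nearer array. The other 16 had no call, and 0 were higher. The medians were -1.09 and -0.71, and the mean level of the list was 4.52 and 4.15 in ES cells and 2.64, 3.19 and 3.87 in the clones, with 2.86, -0.33 and 2.01 in PαS cells, OP cells and TTF. All 30 clones thus lay under both ES lines. Tyms, thymidylate synthase, had levels of 5.0 and 4.58 in ES cells and of 2.0, 2.69 and 3.99 in the clones, a difference of -1.92 ± 0.29 (adjusted p = 4.4e-06) and -1.72 from the nearer array, by all 3 of its probes. Rrm2, a subunit of ribonucleotide reductase, was lower by -1.78 and -1.55, the helicase subunits Mcm3 and Mcm2 by -1.77 and -1.60 (-1.46 and -1.0), cyclin E1 (Ccne1) by -1.91 and -1.44, the sliding clamp Pcna by -1.45 and -1.42 and the mitotic kinesin Kif11 by -1.73 and -1.60. Another probe of Kif11 differed by -0.09 (adjusted p = 0.88). Mki67, the Ki-67 antigen, was lower by -1.23 and -1.17 (-0.74 by another probe, and -0.99, under 2-fold, with a replicate block).

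Growth genes bound by Myc went the same way, 11 of 18 lower and 0 higher, with a median of -1.13. Mycn, the Myc family member of ES cells, had levels of 3.80 and 4.46 in ES cells and of 0.72, 2.10 and 2.85 in the clones, a difference of -2.13 ± 0.34 (adjusted p = 1.3e-05) and -1.80 from the nearer array. The Myc antagonists Mxd4 and Mxi1 were higher by 2.62 and 1.52 (2.4 and 1.42 from the nearer array), again in every clone. Shmt1, an enzyme of folate metabolism, was lower by -2.02 and -1.64. Polr1b, a subunit of RNA polymerase I, was lower by -3.43 and -3.26, with adjusted p = 0.069 without EB-3.

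**Figure D5:**
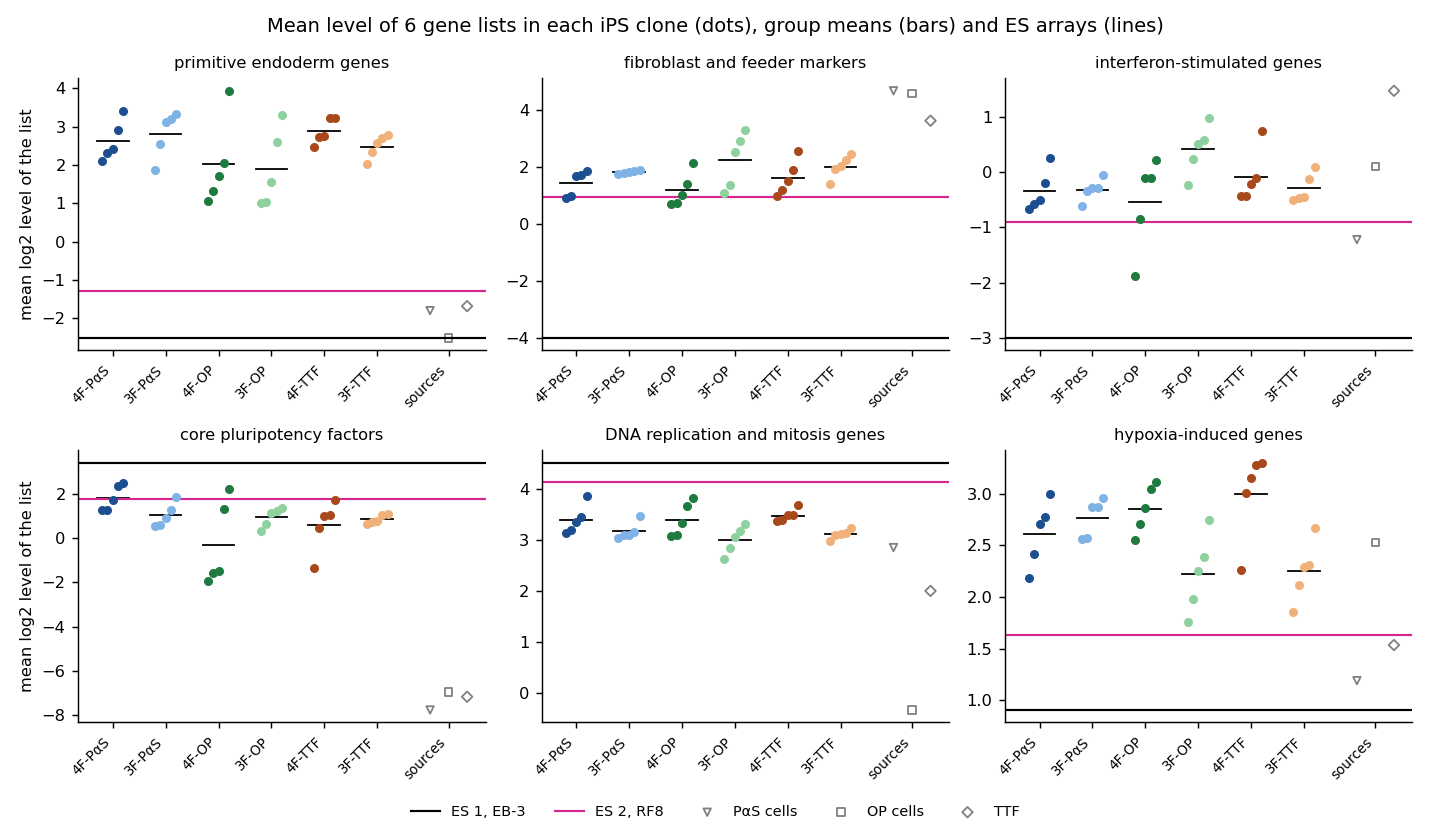
Mean level (log2 relative to the array's 75th percentile) of the genes of 6 lists in each clone by group, with bars for group means, lines for EB-3 (black) and RF8 (magenta) and open symbols for the source arrays. All 30 clones lie above both ES lines for primitive endoderm and hypoxia-induced genes and below both for DNA replication genes, and 27 of 30 lie above both for fibroblast and feeder markers.

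Of 18 DNA methylation genes 5 (27.8%, against 12.8% of all genes) were lower and 3 (16.7%, against 16.4% of all genes) higher. Dnmt3b, a de novo methyltransferase, had levels of 3.73 and 3.83 in ES cells and of -1.24, 0.88 and 2.63 in the clones, a difference of -2.98 ± 0.54 (adjusted p = 4.9e-05) and -2.93 from the nearer array. Hells and Uhrf1, which serve the maintenance of methylation, were lower by -2.38 and -2.16 (-2.31 and -1.87), all in every clone, whereas Dnmt1 differed by -0.89 (adjusted p = 0.0012, under 2-fold) and Dnmt3a by -1.07 (adjusted p = 0.058). Of 27 Polycomb genes 9 were lower and 6 higher, with 4 (40%) lower and 1 (10%) higher of 10 in PRC2 and 5 lower and 5 higher (29.4% each) of 17 in PRC1. The core subunits of PRC2, Ezh2 and Eed, were lower by -1.47 and -1.73 (-1.41 and -1.44), as was their partner Jarid2. Among the chromobox genes of PRC1, Cbx8 was higher by 3.26 and 1.85, and Cbx7, the chromobox protein of ES cells, lower by -2.62 and -2.26 (adjusted p = 0.066 without EB-3). Of 20 histone genes 4 (20%) were higher, among them the linker histones H1f2 (2.09 and 1.52) and H1f0 (1.55 and 1.36), and 6 (30%) were lower. H2aw was lower by -2.66 by the brightest of its probes and differed by 0.32 and 0.58 by the others, so that probes of these near-identical genes remain uncertain.

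Imprinted genes outside the Dlk1-Dio3 region changed in both directions, 12 of 37 higher and 8 lower. H19, a maternally expressed RNA of endoderm and mesoderm, had levels of -5.53 and -0.53 in ES cells and of -0.77, 5.14 and 6.67 in the clones, a difference of 7.75 ± 1.13 (adjusted p = 3.3e-06) and 5.25 from the nearer array, with 1 clone overlapping RF8. Its neighbour Igf2 was 3.61 above the mean (adjusted p = 0.035) but not outside RF8 in every group, and had no call without EB-3 (adjusted p = 0.67), with the slide as a block (0.087) or with a replicate block (0.063). Peg3 was higher by 1.87 and 1.85. Phlda2 and Kcnq1ot1, which lie in 1 imprinted domain and are expressed from opposite parental alleles, were both lower, by -3.02 and -2.21 (-2.42 and -2.13), in every clone. Mest was lower by -2.53 (adjusted p = 0.041), with adjusted p = 0.12 without EB-3, 0.24 without RF8, 0.060 under quantile normalization and 0.084 with the slide as a block. Of 5 genes of the Dlk1-Dio3 region 1 was higher, 1 lower and 3 had no call. Among these 3 were the maternally expressed RNAs Meg3 (-2.24, adjusted p = 0.17) and Rian (-2.26, adjusted p = 0.056), both with a call by another probe (-3.39 and -3.27, adjusted p = 0.0029 and 0.00019). Dlk1 was higher by 3.71 and 1.70 in every clone and Mirg lower by -3.01 (adjusted p = 0.22 without RF8).

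Retinoid and lipid genes were higher in part, 10 of 27, and 3 were lower. Cyp26a1, which breaks down retinoic acid, had levels of -3.69 and -0.64 in ES cells and of -0.62, 1.60 and 3.36 in the clones, a difference of 3.76 ± 0.68 (adjusted p = 5.4e-05) and 2.24 from the nearer array. The nuclear receptor Pparg was higher by 3.14 and 2.90, and the lipid chaperone Fabp4 by 5.39 and 2.61. Fasn, fatty acid synthase, was lower by -1.75 and -1.64. Of 23 genes of unfolded protein and heat shock responses, 3 (13.0%, against 16.4% of all genes) were higher and 0 lower, with Cryab, a small heat shock protein, at -2.19 and -0.92 in ES cells and at 1.01, 3.73 and 5.18 in the clones, a difference of 5.07 ± 0.60 (adjusted p = 1.8e-07) and 4.43 from the nearer array.

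Some lists had few genes called, or shares near those of all genes (16.4% higher, 12.8% lower). By the brightest probe, none of 56 subunits of oxidative phosphorylation passed the limits in either direction, and their median difference was -0.17. Over all 73 probes of these genes 0 were higher and 2 lower. Of 67 cytosolic ribosomal proteins 2 passed as higher by the brightest probe, Rpl11 and Rpl21. Another probe of each differed in the opposite direction, by -0.49 and -1.92, and without RF8 the differences were 0.69 and 0.55. Over all 111 probes of ribosomal proteins 4 were higher and 7 lower. Of 23 glycolysis genes 4 (17.4%) were higher and 0 lower, Hk1 by 1.5 and 1.06 among them, and the median was -0.05. Of 24 genes of cholesterol synthesis 2 (8.33%) were higher and 3 (12.5%) lower, with Idi1 at -1.97 and -1.53. Of 14 epithelial genes 3 were higher and 1 lower, with a median of 0.33, and of 9 mesenchymal switch genes 2 were higher and 0 lower, with a median of 0.58. The 1 lower was the cadherin Cdh1 (-1.34 and -1.12 in all 30 clones, adjusted p = 0.15 without RF8), and Snai1, a repressor of Cdh1, was higher by 3.45 and 2.77.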

How the data were processed

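Intensities were deposited by the authors as Feature Extraction output of 1-colour (Cy3) arrays, 1 file per array, with background-subtracted processed signals, raw signals and flags. The authors' table of log2 values (41266 probes) was used as an alternative. The log2 of each processed signal minus the array's 75th percentile was analysed, without control and outlier spots. A probe entered the fit when each array of some group (of 7) had it well above background (27598 probes). Group means of 32 arrays were fitted with limma 3.58.1 in R 4.3.3 (25 residual degrees of freedom), the 6 clone groups weighted equally against ES cells, with Benjamini-Hochberg adjustment. The fit was tested on simulated data of 27482 probes. Of these, 61 of 100 probes changed by 1.5 (log2) and 88 of 100 changed by 3 were called outside both ES arrays, with 8 false calls. The simulated arrays had independent noise and no difference between lines or sessions, so the false calls do not cover such differences. Each gene was represented by its brightest probe. Of 41174 gene probes, 22951 were named by accession, 6659 by symbol and 3109 by synonym through RefSeq. The other 8455 had no match and could enter only the counts of probes, not those of genes or lists.

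Members, the 40 gene lists and named genes were chosen with earlier results of these data known. Named were the 15 higher and 15 lower genes farthest beyond the nearer ES array with all clones outside, up to 4 genes per list by distance, the reprogramming factors and Nanog, and defining members of lists, of which those beyond the first 4 of a list were picked after their values were seen. "At least" folds set the bright group's mean against the lowest signal above background (or the dim probe's own) on each dim array. ES cells had 1 array per line and each clone 1 array. The p-values rest mainly on the spread between clones of the same group. The spread between ES lines enters them only through 2 arrays. The number of arrays limits precision. Alternatives were normexp correction (offset 50), quantile and median scaling, other filters, other probes, slide and replicate blocks, and leaving out arrays or clones. The text names 224 genes, and the other genes of the lists are only counted. A few results are not reported here.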

Additional observations from a re-analysis of the deposited data

Results flagged for a closer look

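Of the 35 genes tested (the 30 leading genes, the 4 factors and Nanog), 8 differed among the 6 groups of clones in their distance from ES cells, by limma's F-test with Benjamini-Hochberg adjustment, as did 21.5% of all probes. For 4 of them neither ES array was above background, so the mean levels of the lowest and highest group are given and not a distance from ES cells. These were -2.23 in 4F-OP-iPS and 1.96 in 3F-TTF-iPS for Fgb (adjusted p = 0.00462), 0.53 in 3F-OP-iPS and 4.93 in 4F-TTF-iPS for Gkn2 (0.015), -3.16 in 3F-OP-iPS and 0.07 in 3F-PαS-iPS for Isx (0.0148), and -0.35 in 3F-OP-iPS and 2.19 in 3F-PαS-iPS for Enpep (0.0371). Tinagl1 (0.0089), a basement membrane protein, was 7.10 above ES cells in 4F-OP-iPS and 9.27 in 3F-PαS-iPS. Zfp42 (0.0175) was -7.45 from ES cells in 4F-OP-iPS and -4.26 in 4F-PαS-iPS, and Dpys (0.0218) -6.78 in 4F-TTF-iPS and -4.53 in 4F-PαS-iPS. Myc (0.00645) lay on both sides of ES cells, at -2.10 in 3F-PαS-iPS and 1.71 in 4F-OP-iPS. In 4F clones its level may include RNA of the c-Myc retrovirus, which was not tested.

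A clone stood far from the other 4 of its group in 2 of 36 list levels tested, where chance gives about 1 in 20. The mean level of blood cell markers was -1.86 in 3F-PαS-iPS #3 and -2.64 to -2.49 in the other clones of the group. That of DNA replication genes was 3.48 in 3F-PαS-iPS #1 and 3.04 to 3.16 in the others, still below both ES lines.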

How the results depend on the processing

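With 1 array per ES line, scanned outside the clones' session, neither the spread within an ES line nor the effect of the session could be measured. Dim probes give only bounds. Of 213 named genes with a call, 67 lost or turned it without EB-3, 27 without RF8, 30 under normexp background correction, 13 with the slide as a random block, 6 with a replicate block, 7 with all clones as 1 group, 3 under quantile normalization, 1 without the filter on dim probes, 1 with a floor under dim signals and 1 without the 2 clones that failed the teratoma assay. None did so with the authors' table, with median centring or without the 4 clones very low in Sox2 and Nanog (chosen by those levels), and 2 (Amn and Sp7) did so when single clones were left out. Of 84 called genes with another probe, 20 lost or turned their call by it. Of 11 named genes without a call, 4 gained one without the 4 clones very low in Sox2 and Nanog, 2 with a replicate block, 2 without RF8, and 1 each without EB-3, under normexp correction and with a floor under dim signals, and 8 of 330 values without a single clone did. Of the uncalled genes, 5 had other probes, by which 6 of 10 values gained a call and 1 turned direction. The causes were not tested. The median difference of all probes, -0.11, ran from -0.213 without EB-3 to 0.207 without a filter. Clone numbers name clones and pair nothing across groups. With the number as a replicate block, 4670 probes were higher and 5310 lower, 4028 and 4958 outside both ES arrays in all groups.

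Another probe turned the direction of Sall4 (0.42), Rpl11 (-0.49), Rpl21 (-1.92), Stard4 (-0.20 and -0.40), H2aw (0.32 and 0.58), Trp53 (0.45), Ier2 (1.57), Cd9 (-0.94) and Myc (0.49). Without an ES array in turn, Pou5f1 ran from -1.73 (without RF8) to 1.16 (without EB-3), Klf4 from -1.17 (without RF8) to 1.46 (without EB-3) and S100a4 from -0.46 (without EB-3) to 11.05 (without RF8). Pou5f1 was 0.09 without the 4 low clones.

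Under normexp correction, 2383 probes were higher and 2770 lower, 2155 and 2590 outside in all groups, 621 and 666 at least 2-fold beyond the nearer array, and 1235 and 1378 with all clones outside. By group these counts of higher and lower probes were 1831 and 1583 in 4F-PαS-iPS, 2749 and 3195 in 3F-PαS-iPS, 2188 and 3008 in 4F-OP-iPS, 2387 and 3044 in 3F-OP-iPS, 2464 and 3053 in 4F-TTF-iPS, and 2525 and 3051 in 3F-TTF-iPS. With only probes above background on all 32 arrays, lower probes numbered 3075, outside 2926, at least 2-fold beyond 983 and with all clones outside 2083, and by group, in the same order, 2221, 3360, 2991, 3343, 3197 and 3348. Fewer probes were tested there. Without a fold minimum 7944 were lower. Without the filter on dim probes, 3540 were higher with all clones outside, 6266 in 4F-PαS-iPS and 11421 in 3F-TTF-iPS. Without EB-3, 2527 higher and 4700 lower probes were at least 2-fold beyond the remaining line and 5280 were lower with all clones outside. Without RF8 these were 4132 and 3750, and 4618 were higher with all clones outside. Under quantile normalization 1 naive factor was higher, 2 Atf4 targets were lower, and the medians of oxidative phosphorylation and ribosomal genes were -0.02 and 0.01. With the mean of all probes of a gene the ribosomal median was 0.07.

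Leaving out single clones gave 4695 to 4898 higher and 5192 to 5401 lower probes, 3961 to 4133 and 4878 to 5058 outside, 1545 to 1725 and 2060 to 2264 at least 2-fold beyond, and 2324 to 2489 and 3233 to 3410 with all clones outside.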

Other observations

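Some lists that the report does not describe held single genes far from ES cells. Of 26 germline genes that DNA methylation normally silences, 5 (19%, against 16.4% of all genes) were higher and 0 lower, and the list's mean level was above both ES lines in 20 clones and below both in 9. Of the 5, Tex13b was at least 33.8-fold higher (adjusted p = 1.9e-06, limma), with 29 clones above background, and Rhox5 was higher by 3.03. In the neural and sensory list the median was 0.86 from the ES mean but -0.29 from the nearer array. Of its 17 genes 1 (5.88%, against 16.4% of all genes) was higher and 3 (17.6%, against 12.8%) were lower. The lower ones were Neurod1, above background in both ES arrays and in 4 of 30 clones, so that its difference has no measured size, Pax6 by -3.23 and Tubb3 by -1.85. Pax6 and Tubb3 had adjusted p = 0.20 and 0.079 without EB-3, Tubb3 had 0.057 without RF8, and Pax6 had 0.052 with the slide as a block. Of 18 Nrf2 and metallothionein genes 3 (16.7%) were higher and 4 (22.2%) lower, with Gsta1 higher by 4.06 (adjusted p = 0.074 under normexp correction) and the peroxiredoxin Prdx1 lower by -1.47. Ddit3, of the amino acid response, was higher by 2.98 and 2.71 in every clone.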
